A study of Mus musculus with 15 samples.

Results

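The genes described are those of the mouse MHC class II pathway and the invariant chain: Cd74, H2-Aa, H2-Ab1, H2-Eb1, H2-DMa, H2-DMb1, H2-DMb2, H2-Ob and Ciita. They were taken by name, with earlier results of these data known, and each is described whatever its values. Of the 9, 8 were among the 561 genes counted, and H2-DMb1 was not analysed here. Their transcripts were counted on the nCounter Mouse Immunology panel of nanoString, in which each bound transcript is counted through a color-coded probe pair. Of the measured genes, Cd74 lies on chromosome 18, Ciita on chromosome 16 and the other 6 on chromosome 17. The cells were RAW 264.7, a mouse macrophage line that is a single established line and not primary tissue. All cultures received LPS, a bacterial cell wall component that activates macrophages, together with extracellular vesicles (EVs) for 24 hours. The EVs came from plasma of female C57BL/6J mice of 6 to 8 weeks of age. The donors were either sham mice or mice bled 3 or 7 days after WBIR (ionizing radiation to the whole body) at a dose of 2 Gy or of 9 Gy. This gave 5 groups of 3 samples, which are called sham, 2 Gy day 3, 2 Gy day 7, 9 Gy day 3 and 9 Gy day 7 EVs below. No group without LPS or without EVs was analysed here, so every comparison is among LPS-treated cells. Nothing in the labels says whether the 3 samples of a group came from separate cultures or separate donor mice. The methods of the study say that samples were run in triplicate, without saying whether these were runs of the same material. The p-values measure the spread between these samples only.

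MHC class II molecules present peptides from the endosomes of macrophages, dendritic cells and B cells to CD4+ T cells. The α chain (H2-Aa) and the β chains (H2-Ab1, H2-Eb1) are made in the endoplasmic reticulum, where they bind the invariant chain, Cd74, which fills the peptide groove and directs the complex to endosomes. There the invariant chain is cut down to a short fragment, H2-DM (H2-DMa with H2-DMb1 or H2-DMb2) exchanges that fragment for a peptide, and H2-O, of which H2-Ob is the β chain, inhibits H2-DM. Ciita is the coactivator that switches on this gene set, and interferon-γ is its classical inducer in macrophages. Cd74 also has a second role at the cell surface as the receptor for the cytokine Mif.

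Ciita acts at a conserved module upstream of class II genes that holds an X box and, closer to the start, a Y box. Promoter windows were present in the RefSeq table used here (GRCm38.p6) for 5 of the 8 measured genes, H2-DMa with 2 starts, and not for Cd74, H2-Ab1 or Ciita. The 250 bases before each start were searched for the letters GCAAC (the core of an X box) followed 28 to 38 bases later by ATTGG (the core of a Y box, an inverted CCAAT) on the same strand. H2-Aa, H2-Eb1 and H2-Ob held this pair. These stretches are shown, in gene orientation with both cores in capitals, because the same paired letters precede H2-Ob, which was tested here, and H2-Aa and H2-Eb1, whose counts were too low.
H2-Aa (chr17:34287861-34287910, minus strand): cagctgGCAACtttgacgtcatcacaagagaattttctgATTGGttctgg
H2-Eb1 (chr17:34305770-34305818, plus strand): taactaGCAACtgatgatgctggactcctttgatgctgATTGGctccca
H2-Ob (chr17:34238812-34238858, plus strand): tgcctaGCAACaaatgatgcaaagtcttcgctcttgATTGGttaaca
H2-DMb2 (chr17:34145119-34145169, plus strand): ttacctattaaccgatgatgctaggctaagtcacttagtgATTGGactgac
The Y core began 48 bases before the annotated start in H2-Aa, 59 in H2-Eb1 and 57 in H2-Ob. In H2-DMb2 only ATTGG was found, 90 bases before the start. H2-DMa held no such pair in either window. Of 32851 promoter windows, 29.88% held GCAAC and 33.85% held ATTGG on either strand, while 0.4109% held the pair at this spacing. These matches describe letters and not binding.

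The samples differed in depth. Total counts were between 43176 and 87899 in the 9 Gy day 3 samples and between 453178 and 837995 in the other 12 samples. In the 9 Gy day 3 samples 190 to 246 of the 561 genes stood at the lowest deposited count of 1, against 5 to 11 genes elsewhere. Replicates 1 and 2 titled 9 Gy day 3 carry a day of 7 in another label. The class II values and list counts or medians of that group are therefore also given without them. This leaves the group 1 sample, assumed to vary like the other groups. Each sample was divided by a size factor from its 14 housekeeping genes (their geometric mean), and the values so scaled are called normalized counts. On this scale 3 counts in a sample corresponded to 12.2 to 21.8 normalized counts in the 9 Gy day 3 samples and to 1.73 to 3.37 in all others. The geometric mean of the housekeeping genes was 801 to 872 in the 9 Gy day 7 samples and 448 to 603 in the sham and 2 Gy samples. Total counts ran the other way, 453178 to 617963 against 568097 to 837995. An equal raw count therefore gave a lower normalized count at 9 Gy day 7 than in the sham and 2 Gy samples. Of the 8 class II genes, Cd74, H2-DMa and H2-Ob reached the mean of 20 counts required for a test, and H2-Ob only just, with a mean of 20.5. H2-Eb1 (17.7), Ciita (12.9), H2-Aa (9.8), H2-DMb2 (8.27) and H2-Ab1 (7.93) had lower mean raw counts and were not tested in the main comparison. Of all 561 genes, 269 were tested.

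**Figure D1:**
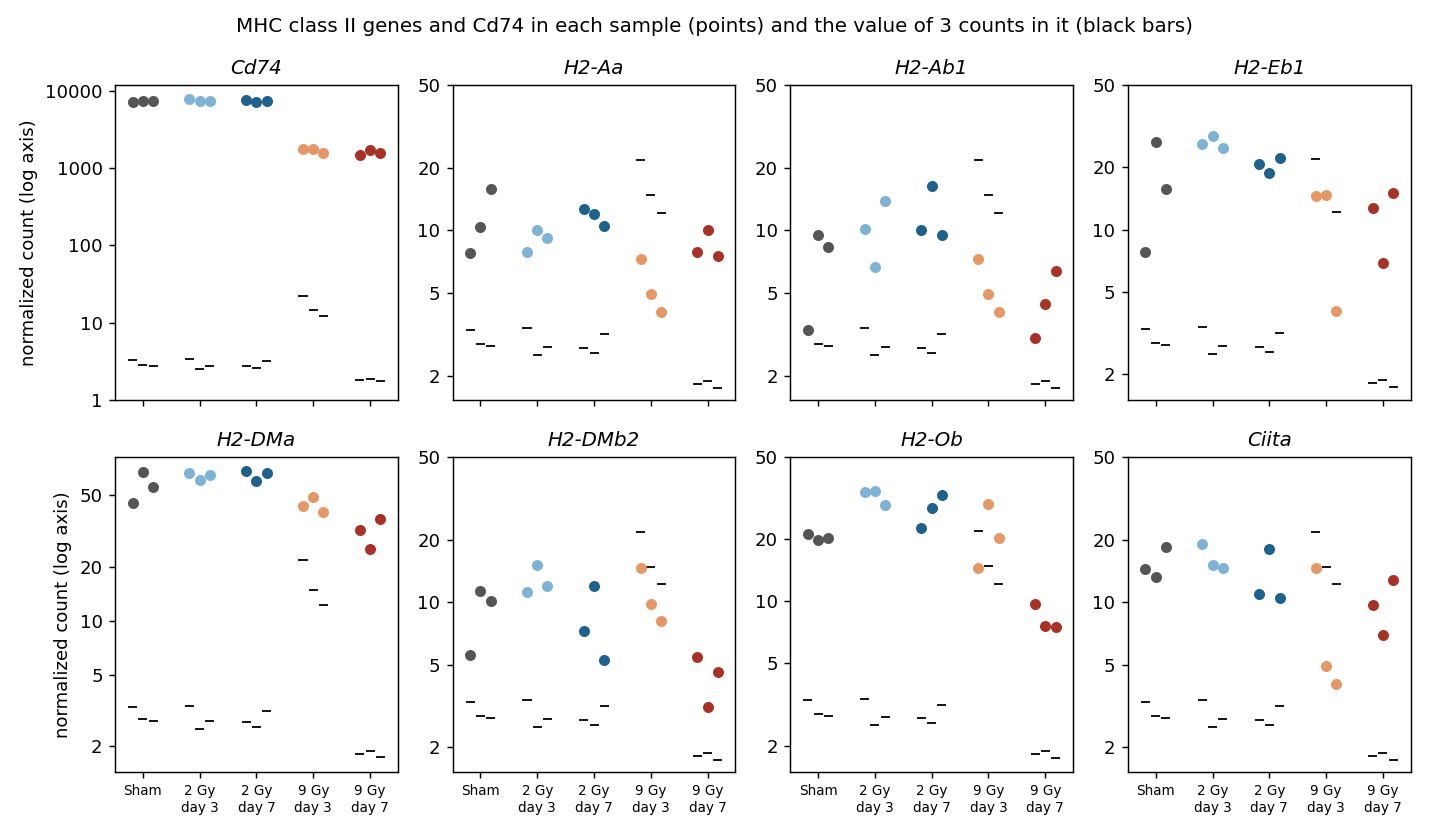
Normalized counts (log axis) of the 8 class II genes in each of the 3 samples (points) of the 5 EV groups, with black bars at the value of 3 counts in each sample. Cd74 fell from 7058 to 7356 with sham EVs to between 1489 and 1783 with 9 Gy EVs, while most 9 Gy day 3 points of the other genes except H2-DMa lie near or below their bars.

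Cd74 was the class II gene with a high count, and it was lower by about 4-fold in the cells given 9 Gy EVs of either day. With sham EVs its normalized counts were 7058, 7356 and 7300. With 2 Gy EVs they were 7785, 7372 and 7393 at day 3 and 7594, 7195 and 7393 at day 7. The 9 Gy day 3 samples held 1783, 1750 and 1577, and the 9 Gy day 7 samples 1489, 1692 and 1556. All 6 samples with 9 Gy EVs thus lay below all 9 others, with no overlap, as they did for 33.8% of the tested genes. The sham mean was 7238 ± 158 (SD, n = 3). The means of the 2 Gy groups were 7517 ± 232 for day 3 and 7394 ± 200 for day 7, and those of the 9 Gy groups 1704 ± 111 and 1579 ± 103.

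In a quasi-likelihood fit of all 5 groups (edgeR, adjusted by Benjamini-Hochberg over the 269 genes), Cd74 was 4.25-fold lower with 9 Gy day 3 EVs than with sham EVs (log2 fold change -2.09, SE 0.10, adjusted p = 3.9e-09). It was 4.58-fold lower with 9 Gy day 7 EVs (log2 fold change -2.20, SE 0.10, adjusted p = 1.85e-09). Without the 2 samples of conflicting day label the day 3 value was -2.20 (edgeR adjusted p = 3.52e-06). Against the 2 Gy EVs, averaged over days, it was 4.55-fold lower (log2 fold change -2.18, SE 0.07, adjusted p = 2.05e-11). Lower levels were common in these comparisons. Of the genes tested, 41.3% were called lower at 9 Gy day 3, 49.1% at 9 Gy day 7 and 52% for 9 Gy against 2 Gy, with medians over all genes of -0.46, -0.45 and -0.45 on the log2 scale. Cd74 had the lowest p-value of the 269 genes in each of these comparisons, and by the size of its decrease it ranked 23rd, 17th and 18th. The day of EV collection made no called difference for Cd74: 9 Gy day 7 against day 3 gave a log2 difference of -0.11, with a 95% interval from -0.32 to 0.11 (edgeR adjusted p = 0.986).

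How samples were scaled changed the size of this difference but not its direction. The log2 fold change of Cd74 was -1.61 at day 3 and -1.71 at day 7 with the median of ratios, -1.62 and -1.71 with TMM, and -1.05 and -1.09 with total counts, and it passed the edgeR threshold under each. The median of all tested genes moved with the scaling, to between 0.01 and 0.03 under the median of ratios and TMM and to between 0.56 and 0.69 under total counts. The share of lower genes among those called also moved, from 80.5% at 9 Gy day 7 to 50.3% under the median of ratios or TMM and 17.8% under total counts. Of all 269 genes, 11.2% were called higher at 9 Gy day 3 and 11.9% at day 7. Under total counts 12.3% and 11.5% were called lower and 45% and 53.2% higher, and under the median of ratios 28.6% were lower and 28.3% higher at day 7. Cd74 was therefore also set against each housekeeping gene within the same sample. Against all 14 of them, every sample with 9 Gy EVs had a lower Cd74 ratio than every sham sample. The log2 difference from sham ranged from -3.50 to -1.29 over these genes at 9 Gy day 3, with a median of -1.85, and from -3.84 to -1.32 at day 7, with a median of -1.98. The housekeeping genes themselves were not level: among the 13 that were tested, Rpl19 had the lowest and Tubb5 the highest log2 fold change, -0.87 and 1.63 at 9 Gy day 7 (4 called lower and 4 higher).

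**Figure D2:**
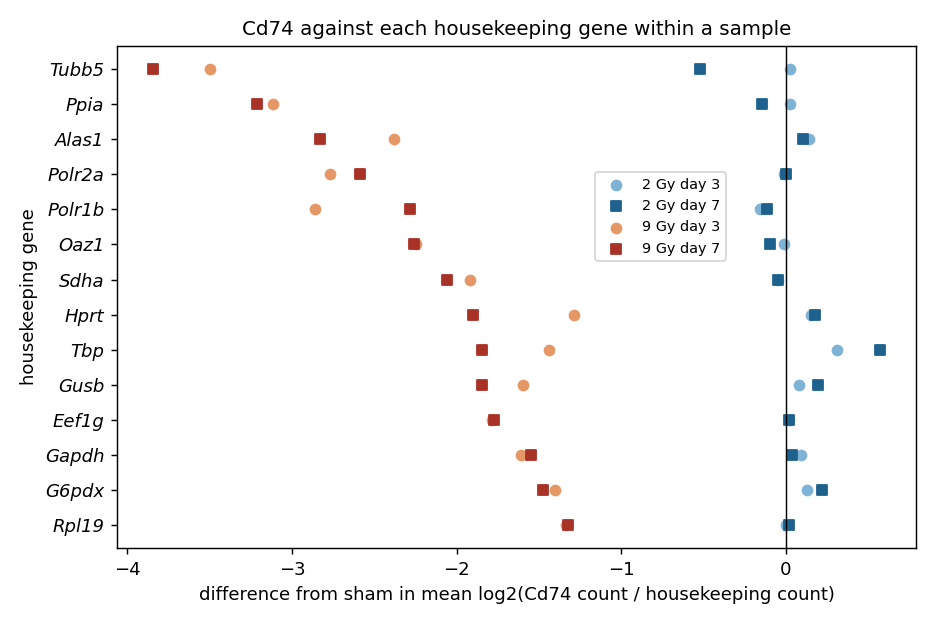
Difference from sham EVs in the mean log2 ratio of Cd74 to each of 14 housekeeping genes within a sample, for 2 Gy and 9 Gy EVs of both days (n = 3 samples a group). Every 9 Gy point lies between -3.84 and -1.29 while the 2 Gy points lie between -0.52 and 0.57.

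H2-DMa, the α chain of the peptide-exchange factor, had normalized counts of 45.5, 67.1 and 55.5 with sham EVs. After 2 Gy its values were 66.3, 61.0 and 65.1 for day 3 EVs and 68.1, 60.0 and 66.3 for day 7 EVs. With 9 Gy EVs they were 43.7, 49.2 and 40.6 at day 3, from 6 to 10 raw counts, and 32.0, 25.2 and 37.0 at day 7. The raw counts at day 7 were 53, 40 and 64 and overlapped with those of the sham samples, 41, 71 and 60. In normalized counts the 9 Gy day 7 samples lay below all sham samples, as for 49.1% of the tested genes. The 9 Gy day 3 samples overlapped with the sham samples. H2-DMa was 1.78-fold lower with 9 Gy day 7 EVs than with sham EVs (log2 fold change -0.83, SE 0.17, edgeR adjusted p = 0.00103) and 1.72-fold lower with 9 Gy than with 2 Gy EVs (-0.78, SE 0.14, adjusted p = 0.000267). At 9 Gy day 3 the log2 fold change was -0.34, with SE 0.23 and an edgeR adjusted p of 0.297, and -0.47 without the samples of conflicting day label (adjusted p = 0.434). Under the median of ratios and TMM the day 7 value was -0.34 and -0.35 and no longer called (edgeR adjusted p = 0.124 and 0.123), and under total counts its sign turned to 0.26. Against 2 Gy EVs it was likewise not called under these (edgeR adjusted p = 0.0653 and 0.083).

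H2-Ob, the β chain of the inhibitor of H2-DM, had normalized counts of 21.1, 19.8 and 20.3 with sham EVs, from 19 to 22 raw counts. After 2 Gy it had 33.7, 34.3 and 29.4 for day 3 EVs and 22.7, 28.3 and 32.6 for day 7 EVs, and in both groups every sample lay above every sham sample, which held for 4.28% of all 561 genes at day 3 and 2.85% at day 7. With 9 Gy day 7 EVs it had 9.66, 7.55 and 7.52, below all other groups, as for 3.03% of all 561 genes. The 9 Gy day 3 values of 14.6, 29.5 and 20.3 rested on 2, 6 and 5 raw counts and overlapped with those of the sham and 2 Gy groups. H2-Ob reached the mean of 20 counts through the 2 Gy groups, where it had 25 to 41 raw counts, so it was also tested in a fit of all 561 genes, which does not depend on that filter. There H2-Ob was lower with 9 Gy day 7 EVs than with sham EVs (log2 fold change -1.29, SE 0.23, edgeR adjusted p = 0.000328), beside 37.8% of all genes, and lower with 9 Gy than with 2 Gy EVs (-1.14, SE 0.18, adjusted p = 8.11e-05), beside 30.8%. In that fit without the 9 Gy day 3 group, added after seeing the data, the latter was -1.85 (edgeR adjusted p = 5.54e-06). When only sham and 9 Gy day 7 samples entered a filtered fit, H2-Ob fell under the filter. At 9 Gy day 3 the log2 fold change from sham was 0.11, with SE 0.29 and an edgeR adjusted p of 0.819; without the 2 samples of conflicting day label it was -0.0085. Under the median of ratios and TMM the day 7 value was -0.81 and stayed called, and under total counts it was -0.20 and was not (edgeR adjusted p = 0.506). Against 2 Gy EVs H2-Ob had -0.70 and -0.68 under the median of ratios and TMM and stayed called. Under total counts that value was -0.02 and was not called (edgeR adjusted p = 0.930). Day 7 against day 3 within 9 Gy gave -1.41 for H2-Ob (SE 0.32), with an unadjusted p of 0.00469 and an edgeR adjusted p of 0.986.

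Cd74 was thus called lower at 9 Gy day 3, and Cd74 and H2-DMa at 9 Gy day 7 and for 9 Gy against 2 Gy, beside 41.3%, 49.1% and 52% of all tested genes. H2-Ob, which passed the filter through the 2 Gy groups, was also called lower in the latter comparisons. H2-DMa passed through all groups but 9 Gy day 3, so these calls describe single genes and no more. Under total counts only Cd74 was called lower at 9 Gy day 7.

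**Figure D3:**
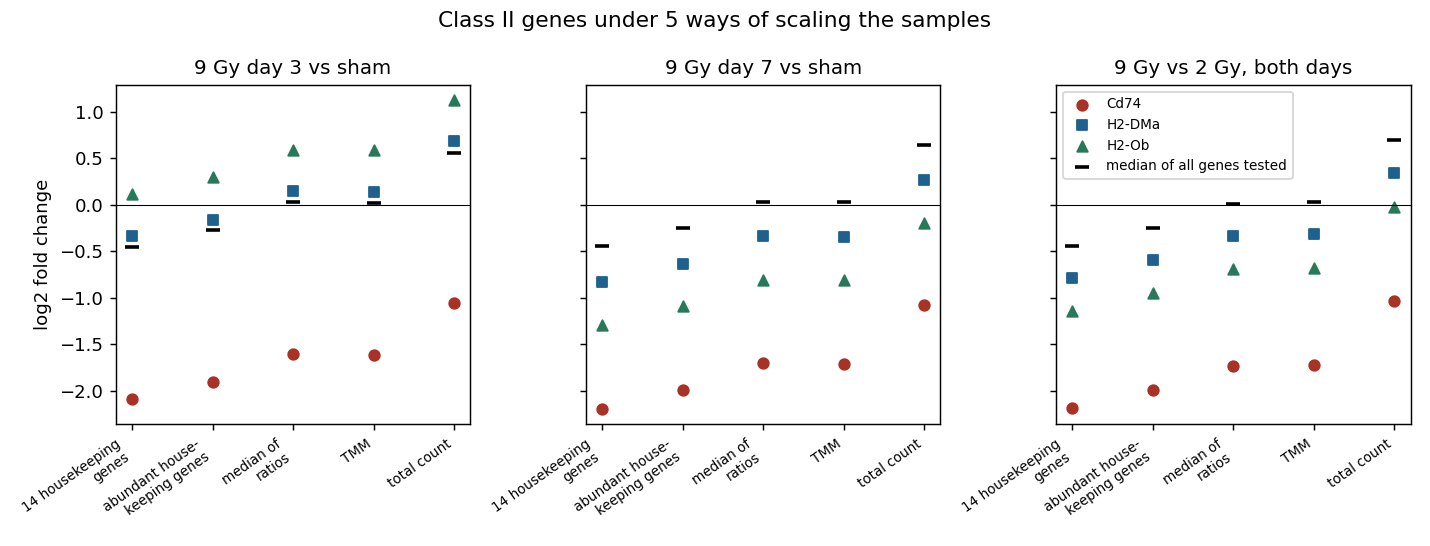
Log2 fold changes of Cd74, H2-DMa and H2-Ob, and the median of all 269 tested genes, under 5 ways of scaling the samples, for 9 Gy day 3 EVs against sham, 9 Gy day 7 EVs against sham and 9 Gy against 2 Gy EVs. Cd74 stays between -2.20 and -1.04 in all 15 fits, whereas H2-DMa and H2-Ob lie nearer to the median of all genes, and H2-DMa lies above 0 under total counts.

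The α and β chains, H2-DMb2 and Ciita had low raw counts in every group, at most 34. With sham EVs the raw counts were 7, 11 and 17 for H2-Aa, 3, 10 and 9 for H2-Ab1, and 7, 28 and 17 for H2-Eb1. Ciita had 13, 14 and 20 raw counts and H2-DMb2 5, 12 and 11. In the sham samples between 7.13% and 55.1% of the panel's genes had counts at or below these chains and 40.6% to 49.2% at or below Ciita, while 98.2% were at or below Cd74. Probes differ in efficiency, so these ranks compare counts and not transcript levels. For scale, the 12 markers of B and T cells on the panel had raw counts of 1 to 125 in the sham samples with a median of 11.5. Of them Cd8a and Lck stood highest, with medians of 108 and 50. The 4 dendritic cell markers had 3 to 12. Of 8 macrophage markers, Cd14, the LPS coreceptor, had the highest sham median, 3328 counts, and Marco, a scavenger receptor, the lowest, 5. Emr1, which encodes the macrophage antigen F4/80, had 1381 to 1850. These markers were named after their values were seen. The untested class II genes thus had counts in the range of the lymphocyte markers. The summed normalized counts of the 12 lymphocyte markers were 242 to 287 in the sham samples, 123 to 211 at 9 Gy day 3 and 136 to 167 at day 7. Their raw counts were alike with sham and 9 Gy day 7 EVs, with medians of 11.5 and 12 and highest values of 125 and 124. Under total counts the tested B and T cell markers had median log2 fold changes of 0.39 and 0.33 at 9 Gy day 7. With housekeeping scaling they were thus lower in the same comparison as H2-DMa and H2-Ob, and their part in that result was not tested.

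**Figure D4:**
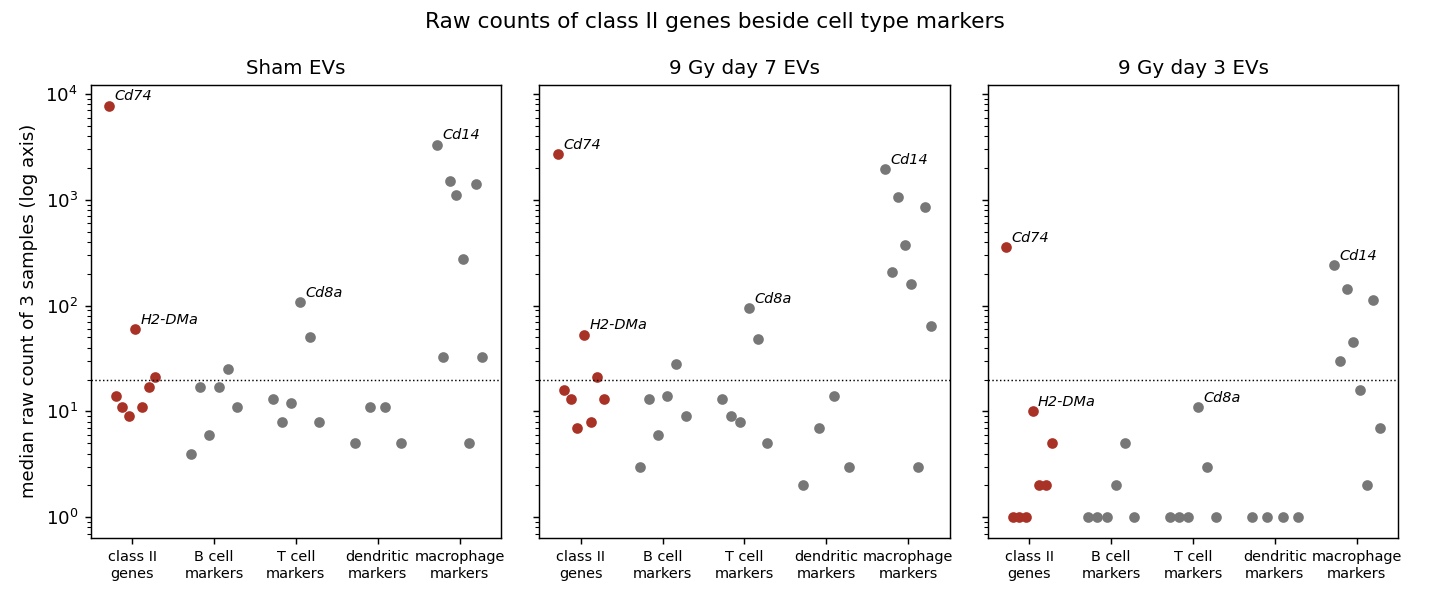
Median raw count of 3 samples (log axis) for each class II gene (red) and for markers of B cells, T cells, dendritic cells and macrophages (grey) with sham, 9 Gy day 7 and 9 Gy day 3 EVs; the dotted line marks 20 counts. With sham EVs only Cd74, H2-DMa and H2-Ob of the class II genes are above the line, and with 9 Gy day 3 EVs only Cd74 is.

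With 9 Gy day 3 EVs H2-Aa and H2-Ab1 stood at 1 count in all 3 samples, H2-DMb2 at 2 in all 3, H2-Eb1 at 2, 3 and 1 and Ciita at 2, 1 and 1. No difference in these genes was detectable in that group at this depth. The 9 Gy day 7 samples had total counts of 453178 to 617963, against 568097 to 729491 with sham EVs, but a higher housekeeping geometric mean. In them H2-Aa had 13, 16 and 13 raw counts, H2-Ab1 5, 7 and 11, and H2-Eb1 21, 11 and 26. H2-DMb2 had 9, 5 and 8, and Ciita 16, 11 and 22. Raw counts there overlapped with those of the sham samples for each of the 5 genes. Normalized counts of H2-DMb2 and Ciita did not: all 3 samples lay below all sham samples, narrowly, with 5.43 against 5.55 for H2-DMb2 and 12.7 against 13.2 for Ciita as the nearest values, as for 44% of all 561 genes. After scaling, the means with 9 Gy day 7 and sham EVs were 8.48 ± 1.38 and 11.3 ± 4.05 for H2-Aa, and 4.59 ± 1.68 and 7.03 ± 3.26 for H2-Ab1. They were 11.5 ± 4.17 and 16.6 ± 9.38 for H2-Eb1, 4.40 ± 1.16 and 9.02 ± 3.06 for H2-DMb2, and 9.77 ± 2.90 and 15.4 ± 2.76 for Ciita (SD, n = 3).

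In a fit of all 561 genes without a filter, added after seeing the data, H2-DMb2 was called lower at 9 Gy day 7 (log2 fold change -1.04, SE 0.35, edgeR adjusted p = 0.0269), beside 37.8% of all genes. Without 9 Gy day 7 replicate 2, sham replicate 2 or sham replicate 3 this call was lost (edgeR adjusted p from 0.0936 to 0.137). It was also lost under each other scaling, with values of -0.84 with only the housekeeping genes of at least 100 counts on average, -0.46 for the median of ratios and -0.48 for TMM (edgeR adjusted p = 0.0859, 0.434 and 0.410). The other 4 were not called: Ciita at -0.64 (edgeR adjusted p = 0.0748), H2-Ab1 at -0.63 (0.216), H2-Eb1 at -0.54 (0.203) and H2-Aa at -0.44 (0.249). H2-Eb1 was called without sham replicate 1 (-0.85, edgeR adjusted p = 0.0458) and Ciita without 9 Gy day 7 replicate 3 (-0.88, edgeR adjusted p = 0.0279). Under total counts all 5 had values above 0. In the same fit the 5 class II genes had a median of -0.63, the 12 B and T cell markers -0.74 (6 called lower) and all 292 genes under the filter -0.70. For 9 Gy against 2 Gy, where 30.8% of genes were called lower, H2-Ab1 at -1.16 and H2-Eb1 at -1.08 were called (edgeR adjusted p = 0.0279 and 0.0178); the 9 Gy day 3 samples, at 1 to 3 counts, are part of that value. In the same fit without that group, added after seeing the data, H2-Ab1 had -1.24, H2-DMb2 -1.21 and H2-Eb1 -0.996 (edgeR adjusted p = 0.00982, 0.00614 and 0.0133), and Ciita at -0.57 and H2-Aa at -0.29 were not called, beside 38.9% of genes called lower.

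With 2 Gy EVs no class II gene was called at either day. edgeR called 0% of the 269 genes at 2 Gy day 3 and 0% at 2 Gy day 7, with 7 and 1 genes at an unadjusted p under 0.05, and DESeq2 called 1 and 0 genes, none of them a class II gene. The log2 fold change of Cd74 was 0.05 at day 3 with a 95% interval from -0.16 to 0.27, and 0.03 at day 7 with an interval from -0.18 to 0.24. H2-DMa had 0.19 and 0.20. In the fit of all genes without a filter H2-Ob had 0.67 at day 3 (SE 0.20, edgeR adjusted p = 0.994) and 0.44 at day 7 (adjusted p = 0.985). Besides H2-Ob, Cd74 lay above all sham samples at 2 Gy day 3, narrowly, with 7372 against 7356 as the nearest normalized counts. So did H2-Ab1 at 2 Gy day 7, with 9.47 against 9.44. The other class II genes overlapped with the sham samples. Of all 561 genes, 4.28% and 2.85% lay above them. Between the days, edgeR called 0% of genes within 2 Gy and 0% within 9 Gy (4 and 6 at an unadjusted p under 0.05; DESeq2 called 0 in both), and Cd74 differed by -0.02 within 2 Gy.

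A ratio of 2 genes within a sample does not depend on the scaling, so each gene was set against Cd74. H2-DMa was at 0.644% to 0.912% of the Cd74 count in the sham samples and at 0.828% to 0.897% with 2 Gy EVs. With 9 Gy EVs it was at 2.45%, 2.81% and 2.57% at day 3 and at 2.15%, 1.49% and 2.38% at day 7, above all others. H2-Ob was at 0.270% to 0.299% in the sham samples, at 0.299% to 0.465% with 2 Gy EVs and at 0.446% to 1.69% with 9 Gy EVs, so that its 2 Gy and 9 Gy values overlapped. Over the 6 samples with 9 Gy EVs and the 3 sham samples, the log2 ratio to Cd74 rose by 1.57 for H2-DMa (two-sided exact permutation p = 0.0119, the smallest that 84 splits allow, adjusted p = 0.0164) and by 1.49 for H2-Ob (exact permutation p = 0.0357, adjusted p = 0.0441). With labels permuted within replicate numbers, which pair the 2 days of 9 Gy, the H2-DMa call was kept (exact permutation, adjusted p = 0.0449) and that of H2-Ob was lost. Most genes behaved so: of 268 genes, 79.1% rose against Cd74 by the same exact permutation test, 5 fell and 51 did neither, with a median difference of 1.65. H2-DMa and H2-Ob were therefore close to the middle of the panel in this measure. The 5 genes called lower against Cd74 by this test, named after their values were seen, encode the cytokines or cytokine subunits Il6, Il1a, Il1b, Il12b and Il23a, with log2 differences from -3.93 for Il6 to -2.04 for Il12b. The H2-Ob call was lost when any 1 sham sample was left out (adjusted p up to 0.0866). H2-Ob was in this set of 268 genes through its counts in the 2 Gy groups, which did not enter the test. The test was not run without the filter, so the H2-Ob call is a description only.

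The genes of the neighbouring class I pathway were lower as well. All 5 tested were called lower at both 9 Gy days, beside 41.3% and 49.1% of all tested genes, with a median log2 fold change of -0.92 at day 3 and -0.94 at day 7. Psmb9, an immunoproteasome subunit, had the lowest value at day 3, -1.83, and B2m, the class I light chain, at day 7, -1.58, while Tap1, the peptide transporter, had the highest at both, -0.81 and -0.60. Under the median of ratios 4 and 3 of the 5 were called lower, beside 22.7% and 28.6% of all tested genes. Under total counts 2 were lower at day 3 and 1 lower and 1 higher at day 7, and the medians turned to 0.11 and 0.17. Of all tested genes, 12.3% and 11.5% were lower and 45% and 53.2% higher under total counts. Within samples, the log2 ratio to Cd74 rose by 0.63 for B2m and by 1.22 for H2-K1, a class I heavy chain (exact permutation, adjusted p = 0.0164 for both), so that Cd74 decreased more than either of them in counts.

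Among 13 tested inducers and regulators of class II, 7 were called lower at 9 Gy day 3 and 9 at day 7, and none higher, beside 41.3% and 49.1% of all tested genes called lower. Il4, a cytokine that induces class II in B cells, had the lowest fitted value at day 3, where it stood at 1 raw count in all 3 samples against 22 to 29 with sham EVs, so its size there is not given. At day 7 Socs3, an inhibitor of JAK-STAT signaling, had the lowest value, -2.39. Irf1, a transcription factor downstream of interferon-γ, had the highest value at both days, 0.90 and 1.07, and was not called (edgeR adjusted p = 0.295 and 0.183). Under the median of ratios 3 of the 13 were called lower and 1 higher at either day. Of all genes, 22.7% were lower and 22.3% higher at day 3, and 28.6% and 28.3% at day 7. Under total counts 5 were called higher at either day and 1 lower at day 7, beside 45% and 53.2% of all genes higher, and the median turned to 0.35 and 0.48.

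Of the genes listed for peptide supply to class II molecules, 5 were tested: the Fc receptors Fcgr1, Fcgr2b, Fcgr3 and Fcgr4, and the protease Ctss. Of these, 4 were called lower at both 9 Gy days, beside the same 41.3% and 49.1% of all genes. Ctss was among them, at -0.82 and -0.70. Under total counts 1 was lower and 1 higher at day 3, and 1 lower and 2 higher at day 7. Of all genes, 12.3% and 11.5% were then lower and 45% and 53.2% higher. Fcgr2b, the inhibitory Fc receptor, had -2.75 at day 3 (SE 0.45, from 7 to 49 raw counts) and -3.71 at day 7, the largest decreases of the list. Fcgr4, an activating Fc receptor, had 0.25 and 0.64 and was not called. Of 6 tested genes of costimulation and adhesion, 4 were called lower and 1 higher at both days, beside 41.3% and 49.1% of all genes lower and 11.2% and 11.9% higher. Under total counts 3 were lower and 2 higher at day 3, and 2 lower and 2 higher at day 7, where 12.3% and 11.5% of all genes were lower and 45% and 53.2% higher. Cd80 and Cd86, the ligands of CD28, had the lowest values, -2.59 for Cd80 at day 3, from 2 to 4 raw counts, and -2.53 for Cd86 at day 7. Icam1, an adhesion molecule of the contact with T cells, was higher at both days, by 3.15 and 3.35 on the log2 scale, and its value was above 0 under each scaling. Of the receptors and ligands of Cd74 and class II, 2 were tested. Cd44, the signaling partner of Cd74, was called lower, -0.70 and -0.56, and Mif, its cytokine ligand, higher, 0.54 and 0.41. Cd44 turned to 0.33 and 0.55 under total counts, while Mif was above 0 under each scaling. Without the 2 samples of conflicting day label, in a fit added after seeing the data in which 25.2% of 278 genes were called lower at 9 Gy day 3, the genes called lower were all 5 of class I, 4 of 13 regulators, 2 of 5 of peptide supply, 3 of 6 of costimulation and 1 of the 2 receptors, and neither Icam1 nor Mif was called higher. In none of these lists was a gene called at either day with 2 Gy EVs.

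**Figure D5:**
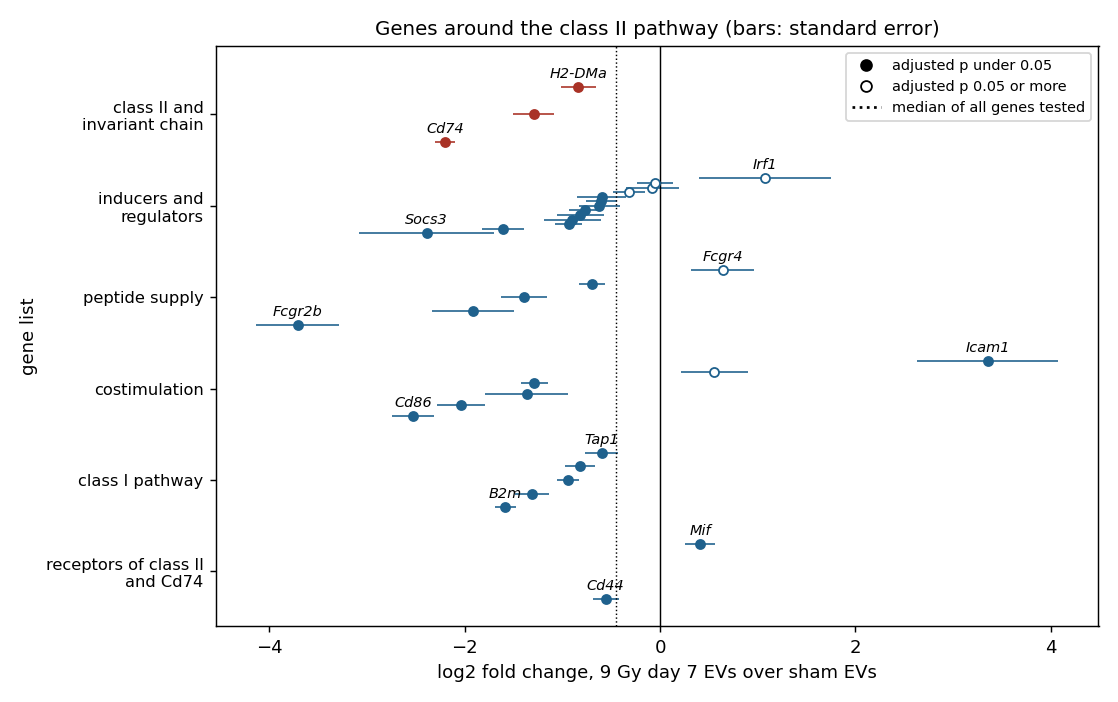
Log2 fold change with standard error at 9 Gy day 7 against sham EVs for the tested genes of the class II list (red) and of lists around it (blue); filled points passed an edgeR adjusted p of 0.05, and the dotted line is the median of all tested genes, -0.45. Cd74 at -2.20 lies among the lower genes of all lists, Fcgr2b at -3.71 is the lowest, and Icam1 at 3.35 the highest.

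Macrophage markers moved with these results. Of 7 tested, 5 were called lower and 1 higher at both 9 Gy days, with medians of -1.20 and -1.25. Of all genes, 41.3% and 49.1% were called lower and 11.2% and 11.9% higher. Under total counts 1 was lower and 2 higher at day 3, and at day 7 2 were higher and the other 5 not called, with medians of -0.22 and -0.16. There 12.3% and 11.5% of all genes were lower and 45% and 53.2% higher. Without the samples of conflicting day label the markers had a median of -0.64 at day 3. Fcgr1, an Fc receptor, had the lowest value, -1.94 and -1.91, and Csf1r, the receptor for the macrophage growth factor, the highest, 2.29 and 1.87. The summed normalized counts of the 8 markers on the panel were 5754 to 9606 in the sham samples, 2671 to 4639 at 9 Gy day 3 and 2656 to 4145 at day 7. Their part in the Cd74 result was not tested. All cells were of a single line. In a bulk sample, a change in some of them and a smaller change in all cannot be told apart.

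The genes whose pattern was most like that of Cd74, by the Pearson correlation of log2 normalized counts over the 15 samples, were Arhgdib (0.995), B2m (0.993), Il6 (0.990), H2-K1 (0.984) and Ccl5 (0.984). These correlations are descriptions: the samples form 2 sets, with and without 9 Gy EVs, and the genes share the same scaling. Of the class II genes, H2-DMa had 0.841 and H2-Ob 0.708. The sizes of change differed among these genes. The log2 fold change at 9 Gy day 7 was -1.09 for Arhgdib and -2.07 for the chemokine Ccl5. For Il6, an LPS-induced cytokine, it was -6.02, from 3000 ± 1027 normalized counts with sham EVs to 45.9 ± 10.9 (SD, n = 3).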

How the data were processed

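The table used here holds raw nCounter counts that the authors deposited as whole numbers, for 15 samples in 5 groups; it lists no control probes, and raw scanner files were not used here; per the methods they normalized in nSolver with settings not given in the sources used here, so no background was subtracted. All value columns were mapped to samples. The median total count was 617963. Size factors came from 14 housekeeping genes (geometric mean). A gene whose counts averaged 20 or more entered an edgeR 4.0.16 quasi-likelihood fit in R 4.3.3 (prior count 0.125, Benjamini-Hochberg over all tested genes, threshold 0.05; the SE is the log2 fold change divided by the square root of F). For genes of few counts edgeR's p-value can be larger than the SE alone gives. Ratios to Cd74 were tested by exact permutation over samples. Intervals are at 0.95 and come from the fit. The floor of 3 counts covers counting error only. The scripts were tested on simulated data.

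The members and gene lists were chosen with earlier results of these data known. All members were named. Other genes were named as the extremes of a list, as the 5 most like Cd74 or, for peptide supply, as all genes tested. The exceptions were the cytokine genes called lower against Cd74 and the cell type markers given with raw counts. These were chosen after their values were seen. Deviations of same-numbered samples from their group means correlated above 0.1 for every number only between the days of a dose (0.365 to 0.779 at 2 Gy, 0.330 to 0.717 at 9 Gy), so the numbers were taken to pair samples there; for the other pairs of groups the correlations were between -0.656 and 0.646. Alternatives were 4 other scalings, no filter, a mean of at least 100, counts under 20 set to 20, only the groups compared, a replicate block, DESeq2 1.42.0, the 2 samples of conflicting day label moved or left out, and each sample left out. The fits without a filter for the untested genes and without the 9 Gy day 3 group were added after seeing the data. Gene symbols were used as deposited, and promoter letters were read from RefSeq windows of GRCm38.p6.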

Additional observations from a re-analysis of the deposited data

How the results depend on the processing

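The decrease of Cd74 with 9 Gy EVs kept its direction and stayed past the threshold under every alternative run. Counts of class II genes called did not. At 9 Gy day 3 the count of 1 became 2 under total counts and 3 with counts under 20 set to 20, where the added calls were higher and not lower: H2-Ob at 1.12 under total counts, and H2-Ob at 2.00 and H2-DMa at 0.57 with counts under 20 set to 20. At 9 Gy day 7 the count of 3 became 1 under total counts and 1 at a mean of at least 100, where only Cd74 is left; it was 2 under the median of ratios and TMM, where H2-DMa was not called, and 2 with only the groups compared, where H2-Ob fell under the filter, and 4 without a filter. For 9 Gy against 2 Gy the count of 3 became 1 under total counts, 1 at a mean of at least 100, 1 with counts under 20 set to 20, 2 under the median of ratios and TMM, 4 without the 2 samples of conflicting day label or the 9 Gy day 3 group, and 5 without a filter, and leaving out 1 sample gave 2 to 3; H2-Ob fell under the filter in 5 of those 12 fits. For 9 Gy day 7 against day 3 the count of 0 became 2 with counts under 20 set to 20, H2-DMa and H2-Ob, both lower at day 7. Of the 2 ratios to Cd74 called, 0 were left at a mean of at least 100, where neither gene is in the set, and 0 with either 9 Gy day left out, where 3 against 3 samples cannot go below 0.1; leaving out 1 sample gave 1 to 2. The replicate block, with labels permuted within numbers, left 1 ratio, that of H2-DMa, and in edgeR the replicate block changed no count of class II calls.

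Signs turned as follows on the log2 scale. H2-DMa at 9 Gy day 3 was 0.14 with the median of ratios, 0.13 with TMM, 0.68 with total counts and 0.57 with counts under 20 set to 20. With total counts it was 0.26 at 9 Gy day 7 and 0.34 for 9 Gy against 2 Gy. H2-Ob at 9 Gy day 3 was -0.0085 with the 2 samples of conflicting day label moved to day 7 and -0.0085 without them, and between -0.17 (without 9 Gy day 3 replicate 2) and 0.26 when 1 sample was left out; for 9 Gy against 2 Gy it was 0.096 with counts under 20 set to 20. Cd74 at 9 Gy day 7 against day 3 was 0.28 with counts under 20 set to 20, 0.066 with those samples moved and 0.0015 without them. In the fit without a filter at 9 Gy day 7, H2-Aa was 0.14, 0.13 and 0.64 and H2-Eb1 was 0.044, 0.022 and 0.55 with the median of ratios, TMM and total counts, and with total counts H2-Ab1 was 0.44, H2-DMb2 0.035 and Ciita 0.43. The cause of these turns was not tested. The counts of 1 to 10 behind every class II gene but Cd74 at 9 Gy day 3 set the limit there.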
